A study of Mus musculus with 8 samples.

Results

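After 3 h of lipopolysaccharide (LPS), the mouse macrophages labelled hMPDM were compared with bone marrow-derived macrophages (BMDM) by the levels each gene had reached, not by its fold response. The comparison was chosen by cell type and treatment alone and holds 3 of the 8 libraries of the series, 1 of hMPDM and 2 of BMDM. BMDM are grown from marrow, here in L929-conditioned medium, and what the letters hMPDM stand for is not given in the sources used here. Neither cell carried a stated genotype, strain or transgene, the dose of LPS is not given, and both cell types had an unstimulated counterpart (1 hMPDM and 2 BMDM libraries) that served as the state at rest. Polyadenylated RNA was counted per gene. Whether the BMDM libraries came from separate cultures is not stated, so each p-value rests on a spread between samples that may be only technical, and the 1 hMPDM library used after LPS gives no replicate error of its own.

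LPS, a lipid-linked sugar of the outer membrane of Gram-negative bacteria, is detected by CD14 and the receptor TLR4 on the macrophage surface. One arm of TLR4 signalling activates NF-kB and induces cytokines such as TNF and the interleukins. The other induces interferon beta, which acts back on the same cells through its receptor and switches on interferon-stimulated genes.

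The 3 libraries held 5510319 counts (hMPDM) and 7977638 and 15261114 counts (BMDM replicates 1 and 2), and a count of 0 allows up to 0.544, 0.376 and 0.197 CPM (the count of a gene scaled to a fixed library total), for counting error only. Levels and folds below, unlike these limits, are scaled by TMM, a correction for differences in library composition, and are given as CPM. The BMDM replicates correlated at 0.997 across genes on the log2 scale, and hMPDM with either of them at 0.981. Macrophage markers were abundant in all 3 libraries: 8 of 8 were counted, with summed levels of 20136 CPM in hMPDM and 20220 and 20693 CPM in BMDM. Markers of B, T, NK and mast cells summed to between 1.90 and 3.71 CPM, with 9 of 11 at 0 in all 3 libraries, and fibroblast and erythroid or megakaryocyte markers summed to 0 in hMPDM and to less than 1 CPM in each BMDM library. Neutrophil markers summed to 27.7 CPM in hMPDM against 96.4 and 89.4 CPM in BMDM, with Ly6g at 0 in all 3.

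A feature of the hMPDM LPS library comes before the results. Of the genes tested, 15 were at or above 5 CPM in BMDM at rest and after LPS but no higher than 5% of that level in hMPDM at rest, where together they stood at 1.38% of the BMDM level. After LPS the same genes stood at 10.8% of the BMDM level in hMPDM, with single genes between 1.46% (Gdf3) and 22.2% (Gpc1). For several genes with a low hMPDM level the difference is also given after subtracting that share of the BMDM LPS level from the hMPDM library. Reads from BMDM RNA and induction of these genes by LPS in hMPDM cannot be told apart in these counts, and the part of this share in the results was not tested. The subtraction removes the same share of every gene, so differences already present become wider, in 172 of the 182 named genes, and this is no independent support for them.

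**Figure D1:**
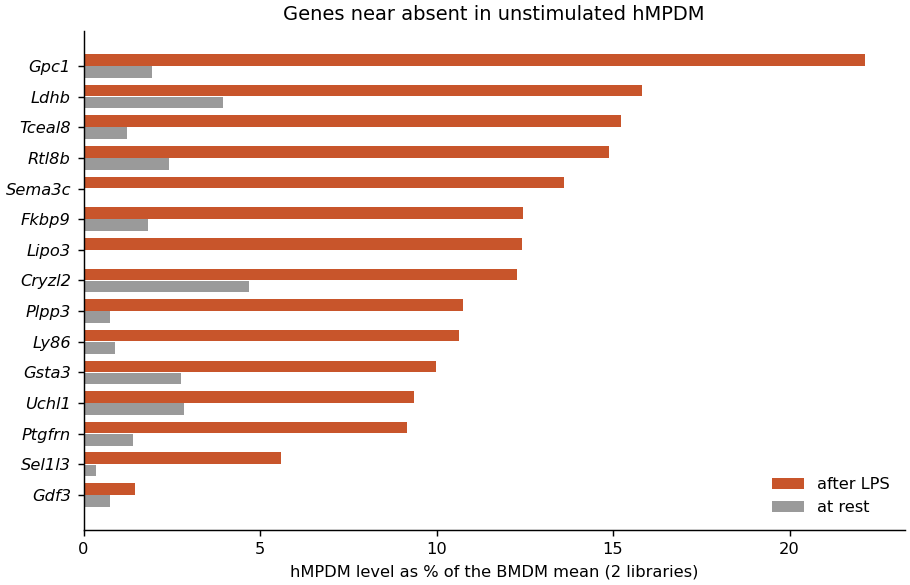
Level in hMPDM as a percentage of the BMDM mean for the 15 genes near absent in unstimulated hMPDM, at rest (grey) and after LPS (orange). Every bar is longer after LPS than at rest, from 1.46% for Gdf3 to 22.2% for Gpc1.

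After LPS, calls were as many in one direction as in the other. In the main fit the larger differences were more often deficits in hMPDM, but not with DESeq2 or among the most abundant genes. Of 12461 genes tested, 1562 were higher (12.5%) and 1559 lower (12.5%) in hMPDM, 25.0% in all, at an adjusted p under 0.05 in edgeR's quasi-likelihood test. With a difference of at least 2-fold as the tested bound, far fewer were called: 90 higher (0.722%) and 125 lower (1.0%). With DESeq2 the balance of this test turned, to 32 higher and 24 lower. In the main fit 39 were higher and 28 lower among genes over 100 CPM. The numbers were 29 and 46 at 20 to 100 CPM, and 11 and 40 at 5 to 20 CPM. For 6165 genes (49.5%) the 95% interval of the difference lay within 1.5-fold in either direction. Among called genes with an estimate of at least 2-fold, 256 were higher and 489 lower. The median difference over all genes was -0.02 on the log2 scale. Among genes over 100 CPM 51.7% were called, and among those at 1 to 5 CPM 11.0%, where the depth gives less precision. Counts for the gene lists below were not tested against genes of like abundance, so they are to be read beside these shares. The spread behind these calls comes from the BMDM pairs, whose fitted coefficient of variation was 2.27%. If single libraries vary by 10%, 522 genes are higher and 713 lower, and at 20%, 136 and 220.

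**Figure D2:**
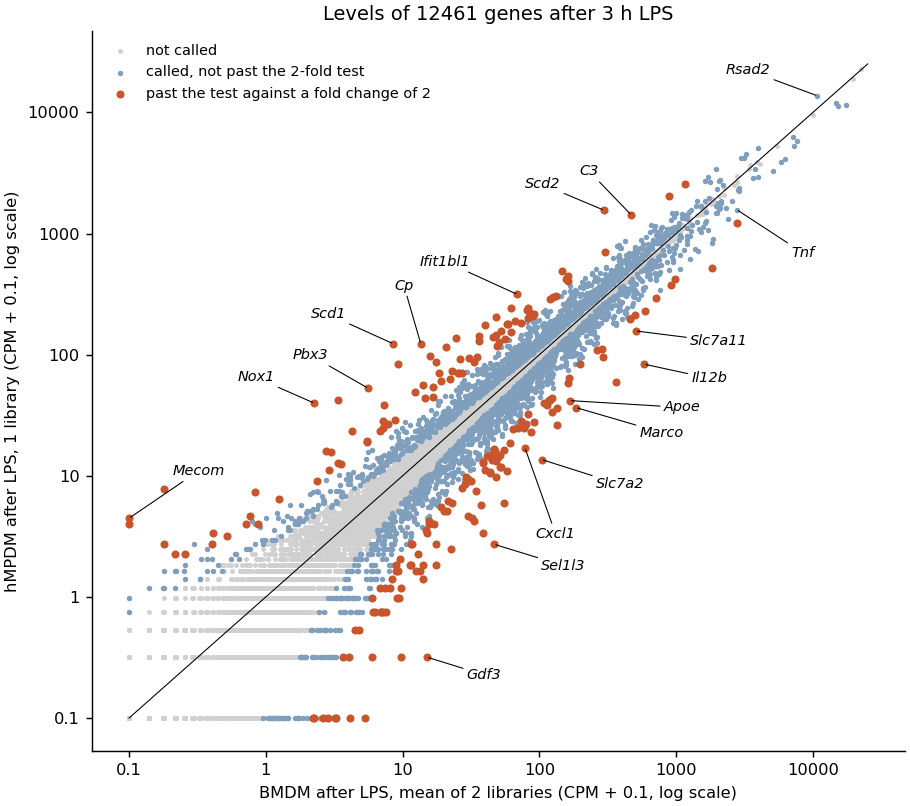
Level of each of the 12461 tested genes after LPS, the mean of 2 BMDM libraries on the horizontal axis and the single hMPDM library on the vertical axis, both as CPM + 0.1 on log scales. Orange points lie past the test against a 2-fold difference (90 above and 125 below the line of equal levels). Genes such as Scd2, C3 and Nox1 lie above the line and Il12b, Slc7a11 and Gdf3 below it.

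Among the 15 genes most increased in hMPDM were lipid enzymes, acute phase proteins and genes of development. Nox1, the catalytic subunit of an NADPH oxidase (ENSMUSG00000031257.10, chromosome X, 134086421 to 134221956, mm10), stood at 39.7 CPM in hMPDM against 2.27 and 2.05 CPM in BMDM. The hMPDM library lay far above both BMDM libraries, a difference of 4.21 ± 0.21 (SE) on the log2 scale (adjusted p = 1.20e-15). Cp, which encodes the copper-binding acute phase protein ceruloplasmin, reached 123 CPM against 13.9 and 13.0 CPM (log2 3.20 ± 0.11). Serpina3g, a serine protease inhibitor, reached 42.5 CPM against 3.17 and 3.40 CPM (log2 3.67 ± 0.21), and its neighbour Serpina3f 15.7 against 2.87 and 2.92 CPM (log2 2.43 ± 0.28). These serpins are close relatives, so reads shared between copies cannot be assigned with certainty. The transcription factor gene Pbx3 (log2 3.38 ± 0.18) and the developmental gene Eya1 (log2 2.60 ± 0.11) were also in this group. So were Ms4a4a, a membrane protein of macrophages (3.21), Prss16, a serine protease (2.56), Nxpe5 (2.50), the stress-induced Sesn1 (2.46), the dicarboxylate carrier Slc13a3 (2.45) and the scavenger receptor Colec12 (2.36).

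The genes with the greatest deficit in hMPDM were largely ones it had lacked before LPS. Gdf3, a growth factor of the TGF-beta family (ENSMUSG00000030117.4, chromosome 6, 122605403 to 122610087, mm10), was at 0.218 CPM in hMPDM, a single read, against 14.7 and 15.3 CPM in BMDM. Its fitted difference was -6.03 ± 0.55 on the log2 scale (adjusted p = 4.05e-10). Sel1l3 stood at 2.62 CPM against 44.3 and 49.2 CPM (log2 -4.17 ± 0.24). Ly86, which encodes MD-1, the partner of the TLR4 relative CD180, stood at 2.40 CPM against a BMDM mean of 22.5 ± 0.590 CPM (SD, n = 2) (log2 -3.22 ± 0.28). All 3 were already near absent in unstimulated hMPDM, as were 9 of the 15 genes named here (Uchl1, Gsta3, Plpp3, Cryzl2, Lipo3 and Fkbp9 besides these). The other 6 were Col27a1, Hnmt, Slc7a2, Pla2g7, Il12b and Dst, with differences from -3.55 to -2.73. Col27a1, a collagen chain, was low in both cell types at rest (0.0601 CPM in hMPDM, 0.239 and 0.145 CPM in BMDM). After LPS it reached 40.9 and 36.7 CPM in BMDM but 3.27 CPM in hMPDM. The subtraction described above leaves no hMPDM level for 8 of the 15 (Gdf3, Sel1l3, Col27a1, Uchl1, Gsta3, Ly86, Plpp3 and Hnmt), so their fitted differences after it are not given.

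Some genes were counted after LPS in one cell type only. Mecom, a transcription factor gene of haematopoietic stem cells, had 20 reads in hMPDM and 0 in both BMDM libraries. That is 28.0-fold higher if 3 counts are assumed over the BMDM group. Folds of this kind leave out the counting error of the observed reads, so they are not strict lower bounds. Klhl4 had 18 reads against 0 and 0, 25.2-fold higher on the same footing. At rest these genes had 112 and 85 reads in hMPDM and 0 in both BMDM libraries. Cdh4, Derl3 and Ccdc80 followed with 4 reads each against 0, near the limit of detection, and had 5 to 12 reads in hMPDM and 3 or 4 over both BMDM libraries at rest. In the other direction, the pseudogene Gm5345 had 0 reads in hMPDM against 33 and 69 in BMDM (8.09-fold lower if 3 counts are assumed in hMPDM). Tgfbr3, a TGF-beta co-receptor, had 0 against 28 and 48 (6.03-fold lower). Kalrn, Rtl8a and A530040E14Rik were also at 0 in hMPDM, 4.04- to 4.76-fold lower on the same footing. At rest hMPDM had 8 reads of Tgfbr3, 4 of Kalrn, 2 of Gm5345, 1 of A530040E14Rik and 0 of Rtl8a.

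More inflammatory cytokine transcripts stood lower than higher in hMPDM. Of 20 tested members of the list, 10 were lower, 4 higher and 6 not called, with a median difference of -0.54 on the log2 scale against -0.02 over all genes. The counts are 7 lower and 3 higher with DESeq2, and 2 and 0 if single libraries vary by 20%. Il12b, the p40 subunit of IL-12 and IL-23 (ENSMUSG00000004296.10, chromosome 11, 44400063 to 44414033, mm10), was at 83.3 CPM in hMPDM and at 608 and 561 CPM in BMDM. The groups were far apart, and at log2 -2.80 ± 0.08 (adjusted p = 3.23e-21) it was the single list member past the test against a fold change of 2. With the share of the BMDM level subtracted, its difference was -4.68.

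The pyrogenic cytokines were nearer to each other. Tnf stood at 1570.5 CPM in hMPDM and at 2844 and 2718 CPM in BMDM (log2 -0.82 ± 0.04, adjusted p = 5.47e-15). Il1b stood at 309 CPM against 555 and 552 CPM (log2 -0.84 ± 0.05, adjusted p = 3.50e-13). Il6 stood at 77.8 CPM against 113 and 101 CPM (log2 -0.44 ± 0.09, adjusted p = 4.20e-04). For each of the 3 genes hMPDM lay below both BMDM libraries, although Il6 was not called when DESeq2 was used or when single libraries were taken to vary by 10%. The costimulatory ligand Tnfsf9 was lower as well (65.4 against 127 and 119 CPM), as was Il27 (53.6 against 104 and 98.1 CPM).

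The cytokine genes that stood higher in hMPDM were Tnfsf10, Il18, Csf1 and Tgfb1. Tnfsf10, the death ligand TRAIL, was at 224 CPM against 117 and 94.9 CPM (log2 1.12 ± 0.08, adjusted p = 4.74e-12). Il18 was at 38.6 CPM against 18.4 and 17.8 CPM (log2 1.10 ± 0.14, adjusted p = 2.82e-07). Csf1, the growth factor of macrophages themselves, was at 1166 CPM against 649 and 652 CPM (log2 0.84 ± 0.05, adjusted p = 5.54e-15). Tgfb1 differed by 0.24 (log2) and was not called by DESeq2. Il15 was close to equal (237 against 253 and 240.0 CPM), and its interval from -0.18 to 0.08 keeps any difference within 1.5-fold. Il10 was too scarce to place (2.18 against 4.08 and 4.03 CPM, adjusted p = 0.172).

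Chemokines followed the cytokines. Of 22 tested, 12 were lower and 5 higher, with a median of -0.45, where 12.5% of all genes were called in each direction. The counts are 9 lower and 3 higher with DESeq2, 7 and 3 if single libraries vary by 10%, and 1 and 1 at 20%. The neutrophil attractant Cxcl1 (ENSMUSG00000029380.10, chromosome 5, 90891241 to 90893115, mm10) stood at 17.0 CPM in hMPDM and at 82.3 and 73.9 CPM in BMDM. This was a difference of -2.18 ± 0.14 on the log2 scale (adjusted p = 4.20e-13), past the test against a fold change of 2, and -3.02 after the subtraction. Its relative Cxcl3 stood at 33.8 CPM against 68.7 and 74.2 CPM (log2 -1.09 ± 0.12), and Cxcl2 at 325 CPM against 448 and 446 CPM (log2 -0.46 ± 0.06). Ccl5, which attracts T cells and monocytes, stood at 712 CPM against 1437 CPM in each BMDM library (log2 -1.01 ± 0.05, adjusted p = 1.11e-16). The interferon-induced Cxcl10 was at 5302 CPM against 7282 and 7137 CPM (log2 -0.44 ± 0.04), and Ccl2, which recruits monocytes, at 1866 CPM against 2538 and 2567 CPM (log2 -0.45 ± 0.04). The calls of Cxcl10 and Ccl2 are lost if single libraries vary by 10%. Ccl9 was higher in hMPDM (2649.7 against 1805 and 1719 CPM), as was the scarcer Ccl8 (10.0 against 4.08 and 2.53 CPM, log2 1.70 ± 0.33), which DESeq2 did not call.

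Promoters of 3 of the 15 chemokine genes that have a promoter entry, Cxcl1, Cxcl2 and Cxcl3, hold the NF-kB motif in the 250 bases before the start. The motif was searched on both strands, and 0.524% of tested genes with a promoter hold it. Among the cytokine genes it is in Il6, which was lower in hMPDM, and in Csf1, which was higher. The stretches around the motif in the chemokine most reduced in hMPDM, in its paralog and in the cytokine Il6 show it in capitals (RefSeq, GRCm38.p6, 5′ to 3′ on the gene's strand). They lie at chr5:90891154-90891203 (+), chr5:90786008-90786057 (+) and chr5:30013050-30013099 (+), and the match says nothing of binding in these cells.
Cxcl1: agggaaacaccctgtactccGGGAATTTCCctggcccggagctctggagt
Cxcl3: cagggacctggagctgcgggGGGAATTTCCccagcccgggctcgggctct
Il6: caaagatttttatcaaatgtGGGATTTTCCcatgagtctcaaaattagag

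Upstream of these genes, sensing and feedback components differed in a mixed way. Of 27 genes of LPS sensing and signalling, 10 were higher, 4 lower and 19 had an interval within 1.5-fold, with a median of 0.04. Of all genes, 12.5% were called in each direction, and 51.7% in either direction among those over 100 CPM. The list is thus not shown to be called more often than other abundant genes. Cd14, the LPS coreceptor, stood at 1309 CPM in hMPDM against 2353 and 2446 CPM in BMDM (log2 -0.88 ± 0.04, adjusted p = 1.29e-15). Tlr4 itself was higher, at 114 CPM against 75.4 and 71.8 CPM (log2 0.64 ± 0.08, adjusted p = 2.75e-07), and so was Tlr1, a partner of TLR2 (193 against 96.1 and 88.8 CPM). Tlr2 was lower (1639.8 against 2087 and 2066 CPM, log2 -0.34), a call lost if single libraries vary by 10%. With Cd14, Ly86 and Tlr2, the fourth lower gene was the adaptor Traf3.

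Of 31 genes of NF-kB subunits and feedback, 16 were lower and 6 higher, with a median of -0.32, where 12.5% of all genes were called in each direction. The counts are 12 lower and 4 higher with DESeq2, 7 and 4 if single libraries vary by 10%, and 0 and 1 at 20%. At rest 12 of the 31 were lower and 8 higher. The inhibitor Nfkbia stood at 662 CPM against 1068 and 1060.5 CPM (log2 -0.68 ± 0.05). The phosphatase gene Dusp1 stood at 19.8 CPM against 50.3 and 40.7 CPM (log2 -1.16 ± 0.16), and Zc3h12a, an RNase that degrades cytokine transcripts, at 86.6 CPM against 157 and 155 CPM (log2 -0.85 ± 0.08). The subunit gene Nfkb1 reached close levels (655 against 704 and 703 CPM, interval -0.20 to -0.01). Highest above BMDM were Trib3, a pseudokinase also induced by amino acid stress (log2 2.39 ± 0.17), and the phosphatase gene Dusp4 (118 against 59.7 and 60.8 CPM). Immediate early genes were called in both directions, with 4 higher, 7 lower and 16 not called of 27. If single libraries vary by 10%, 0 are higher and 6 lower, and at rest 1 was higher and 18 lower.

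Genes that respond to LPS in another cell were also looked at. In the macrophage-like line RAW 264.7, 75 tested genes reached 5 CPM or more after LPS and rose at least 4-fold. In hMPDM 41 of them were lower than in BMDM and 7 higher, with a median of -0.37 and 0 and 2 past the test against a fold change of 2 (higher and lower). Of all genes, 12.5% were called in each direction, and 51.7% in either direction among those over 100 CPM. The set shares members with the lists above, such as Tnf, Cxcl2 and Nfkbia, so it is no independent support for them. Among the 7 higher were Csf1, the metabolite receptor gene Gpr84 (336 against 184 and 188 CPM) and the amino acid oxidase gene Il4i1 (76.1 against 34.4 and 35.2 CPM).

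**Figure D3:**
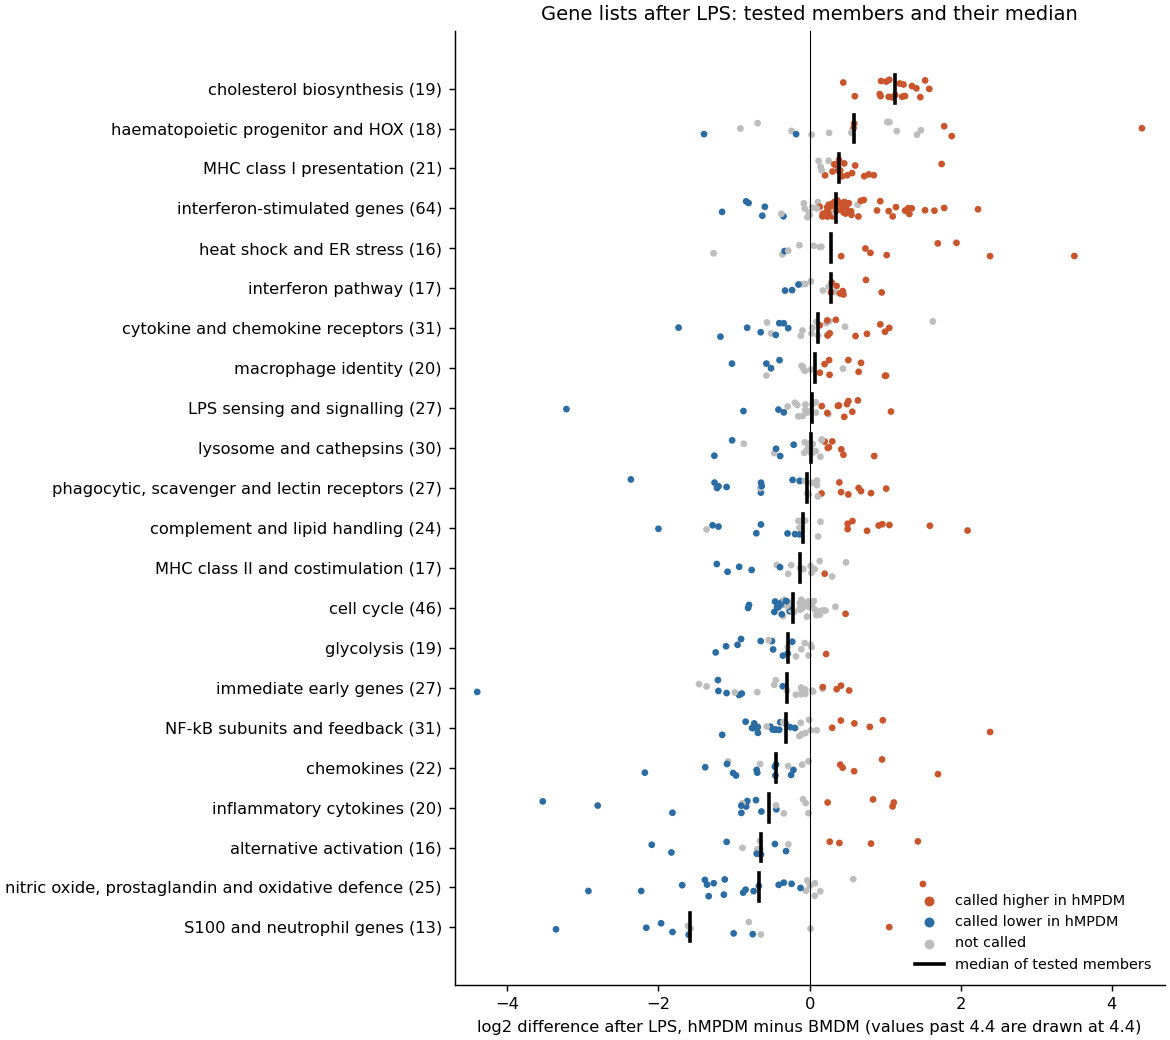
Differences after LPS (log2, hMPDM minus BMDM) of the tested members of 22 gene lists, whose number stands behind each name. Points are genes, coloured where called higher (orange) or lower (blue), and black bars are medians. All 19 cholesterol biosynthesis genes lie above 0, and most cytokine, chemokine and oxidative defence genes below it.

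The interferon-stimulated genes were, by contrast, mostly at or above the BMDM level. Of 64 tested, 46 were higher and 6 lower, 7 of the higher ones were past the test against a 2-fold difference, and the median was 0.35. Their summed level was 53576 CPM in hMPDM and 44288 and 41525 CPM in BMDM. The counts fall to 34 higher and 3 lower with DESeq2, to 19 and 4 if single libraries vary by 10%, and to 9 and 0 at 20%. The difference was small for the most abundant of them. Rsad2, the antiviral enzyme viperin (ENSMUSG00000020641.11, chromosome 12, 26442753 to 26456452, mm10), was at 13716 CPM in hMPDM and at 11160.5 and 10369 CPM in BMDM (log2 0.35 ± 0.05, adjusted p = 5.18e-07). Ifit1, which binds foreign RNA, was at 2669 CPM and at 2883 and 2701 CPM, below both BMDM libraries by less than the test detects (adjusted p = 0.362), with an interval from -0.16 to 0.03. Parp14 was at 3389 CPM between the BMDM values of 3498 and 3274 CPM.

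Larger differences were found among relatives of these genes. Ifit1bl1, a paralog of Ifit1 (ENSMUSG00000079339.6, chromosome 19, 34592888 to 34601968, mm10), stood at 314 CPM in hMPDM against 77.8 and 60.2 CPM in BMDM (log2 2.23 ± 0.09, adjusted p = 2.23e-18). Oas2, a sensor of double-stranded RNA, stood at 233 CPM against 85.6 and 77.6 CPM (log2 1.53 ± 0.07, adjusted p = 1.35e-16). Ms4a4c was at 44.0 CPM against 15.7 and 13.0 CPM (log2 1.65 ± 0.15), and Ly6a, also a marker of haematopoietic stem cells, at 18.8 CPM against 5.29 and 5.53 CPM (log2 1.78 ± 0.23). Ifit3 was at 788 CPM against 387 and 352 CPM (log2 1.10 ± 0.05). The 6 lower members were Ifih1, Oasl1, Ifi208, Ifi209, Ifi44 and Ifi213. Of these the most abundant was Ifih1, the RNA sensor MDA5, at 520.1 CPM against 677 and 647 CPM (log2 -0.35 ± 0.05), and Oasl1 stood at 425 CPM against 645 and 637 CPM (log2 -0.59 ± 0.05). Ifit, Oas and Ifi200 genes have close paralogs among which reads may be shared.

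The interferon-stimulated response element is built on a pair of GAAA repeats, which were searched with any 2 bases between them, on both strands, in the 250 bases before the start. The element was present in 28 of the 51 list genes with a promoter entry (54.9%), in 3.45% of all tested genes, in 6.32% of genes called higher and in 3.13% of genes called lower. Of 105 genes with a promoter past the test against a fold change of 2 in the lower direction, 0 held it, and of 63 in the higher direction, 6. The stretches of a gene with a large difference (Ifit1bl1), of one with a moderate difference (Ifit3) and of ones with a small or undetected difference (Rsad2, Ifit1) are shown with the motif, read on the opposite strand, in capitals. They come from RefSeq (GRCm38.p6) at chr19:34602043-34602092 (-), chr19:34583353-34583436 (+), chr12:26456543-26456592 (-) and chr19:34640765-34640833 (+).
Ifit1bl1: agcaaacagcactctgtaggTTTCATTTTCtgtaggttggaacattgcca
Ifit3: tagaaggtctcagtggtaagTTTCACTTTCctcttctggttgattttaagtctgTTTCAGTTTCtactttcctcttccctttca
Rsad2: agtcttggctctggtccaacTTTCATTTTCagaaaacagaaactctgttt
Ifit1: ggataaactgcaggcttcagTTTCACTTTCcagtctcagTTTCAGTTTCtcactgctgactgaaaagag
Ifit1 and Ifit3 each hold the motif at 2 places, and Ifit1bl1 and Rsad2 at 1.

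Among interferon signalling genes more were called higher than lower, by small differences. Of 17 tested, 8 were higher and 3 lower, with a median of 0.28, where 12.5% of all genes were called in each direction. The counts fall to 5 higher and 1 lower with DESeq2, to 2 and 0 if single libraries vary by 10%, and to 0 and 0 at 20%. The transcription factor gene Irf7 (ENSMUSG00000025498.10, chromosome 7, 141262706 to 141266481, mm10) stood at 759.9 CPM in hMPDM and at 388 and 395 CPM in BMDM, a difference of 0.96 ± 0.05 on the log2 scale (adjusted p = 3.55e-16). Usp18, a brake on interferon receptor signalling, stood at 516 CPM against 315 and 302 CPM (log2 0.75 ± 0.05), and Stat2 at 979 CPM against 713 and 721 CPM. The call of Stat2 is lost if single libraries vary by 10%. Ifnb1 itself was at 3.71 CPM, from 17 reads, against 2.72 and 3.32 CPM (log2 0.25, interval -0.62 to 1.13, adjusted p = 0.732), so a difference was not detectable at this depth. Irf1, another inducer of these genes, was within 1.5-fold (1198 against 1266 and 1301 CPM).

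The class I presentation pathway, which is driven in part by interferon, was higher without exception among its called members. Of 21 genes, 17 were higher and 0 lower, 4 were not called, and the median was 0.39. At rest 18 of the 21 were already higher and 0 lower, with a median of 0.61. H2-K1, a classical class I heavy chain, was at 2942 CPM against 1669 and 1747 CPM (log2 0.78 ± 0.04, adjusted p = 3.78e-15). Nlrc5, the transactivator of class I genes, was at 304 CPM against 169.8 and 168 CPM (log2 0.85 ± 0.06), and H2-T24 at 53.9 CPM against 18.1 and 14.9 CPM (log2 1.75 ± 0.13). B2m, the shared light chain, was at 2690.2 CPM against 2085 and 2057 CPM (log2 0.38), a call lost if single libraries vary by 10%, at which 5 of the 17 calls remain. The H2 genes are a family of near-identical sequences, so reads may be shared among them. Class II and costimulation genes went the other way where called, with 5 of 17 lower and 1, Cd274, higher. Cd40 stood at 250.3 CPM against 481 and 475 CPM (log2 -0.93 ± 0.06), Cd80 at 26.2 CPM against 57.4 and 54.4 CPM (log2 -1.09 ± 0.13), and Ciita, the class II transactivator, at 11.8 CPM against 20.5 and 19.8 CPM. DESeq2 did not call Ciita, and if single libraries vary by 20% no gene of this list is called.

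**Figure D4:**
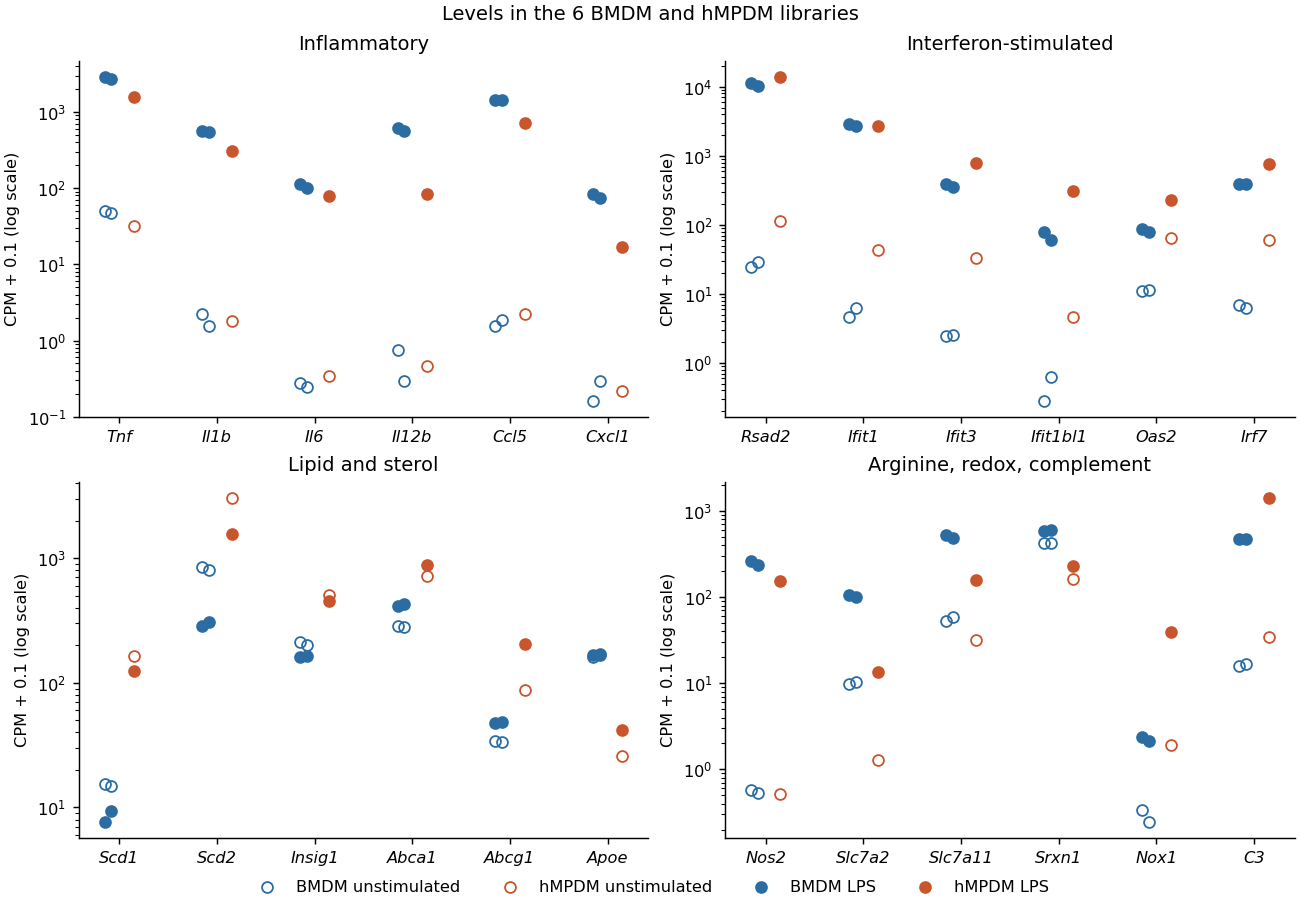
Levels of 24 genes in the 6 BMDM and hMPDM libraries (CPM + 0.1, log scales), at rest (open) and after LPS (filled), with BMDM in blue and hMPDM in orange. After LPS hMPDM lies below both BMDM libraries for the inflammatory genes shown and above them for Ifit1bl1, Oas2 and Irf7. Apoe, Slc7a2 and Srxn1 are lower and Scd1, Scd2 and Insig1 higher in hMPDM in both states.

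Genes of sterol synthesis were higher in hMPDM. All 19 tested genes of cholesterol biosynthesis and its regulation were higher in hMPDM, 8 of them past the test against a fold change of 2, with a median of 1.13. Their summed level was 5888 CPM in hMPDM and 2859 and 2986 CPM in BMDM. With DESeq2, and if single libraries vary by 10%, 18 of the 19 remain called, and at 20%, 9. The highest were Mvd, a decarboxylase of the mevalonate pathway (157 against 50.0 and 54.0 CPM, log2 1.58 ± 0.09), and Lss, which closes the sterol rings (243 against 78.4 and 87.8 CPM, log2 1.53 ± 0.07). Insig1, which retains the regulator SCAP in the endoplasmic reticulum, was at 449.6 CPM against 160.3 and 164 CPM (log2 1.47 ± 0.06), and Cyp51 at 418 CPM against 154 and 159 CPM (log2 1.41 ± 0.06). Srebf2, the transcription factor gene of the pathway, was among the less different (log2 0.45).

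Beside this list, the desaturase genes, whose products make oleate, are described as examples chosen after their values were seen. Scd1 (ENSMUSG00000037071.2, chromosome 19, 44394451 to 44407709, mm10) was at 123 CPM in hMPDM and at 7.55 and 9.25 CPM in BMDM. Its neighbour Scd2 (ENSMUSG00000025203.5, chromosome 19, 44293676 to 44306864, mm10) was at 1560.2 CPM against 285 and 306 CPM. The differences were 3.83 ± 0.12 and 2.39 ± 0.05 on the log2 scale (adjusted p = 8.65e-21 and 1.63e-24), with no overlap of the groups. Fasn, the fatty acid synthase, was at 403 CPM against 153 and 172 CPM (log2 1.30 ± 0.07). Of 13 cholesterol genes with a promoter entry, 1, Hmgcs1, holds the sterol response element TCACNCCAC in the 250 bases before the start, against 1.21% of tested genes. The motif was chosen after the values were seen, and this stretch is shown because Hmgcs1, which makes HMG-CoA, was the one list gene with a match (RefSeq, GRCm38.p6, chr13:119690194-119690242, +, motif in capitals).
Hmgcs1: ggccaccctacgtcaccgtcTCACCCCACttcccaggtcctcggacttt
Hmgcs1 itself stood at 765 CPM against 391 and 404 CPM (log2 0.94 ± 0.05).

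Lipid export and uptake genes divided. The cholesterol exporter genes Abcg1 (205 against 47.4 and 48.3 CPM, log2 2.09 ± 0.07) and Abca1 (875 against 411 and 428 CPM, log2 1.06 ± 0.05) were higher in hMPDM. Apoe, the apolipoprotein that accepts exported lipid, was at 41.6 CPM against 166 and 167 CPM (interval of the log2 difference -2.19 to -1.81, adjusted p = 2.37e-16). With the share of the BMDM level subtracted, its difference was -2.65. The lipase gene Lpl (376 against 887 and 941 CPM, log2 -1.28 ± 0.05) and the fatty acid receptor gene Cd36 (422 against 986 and 961 CPM, log2 -1.21 ± 0.05) were lower. In the same list C3, the central complement component, was at 1419.8 CPM against 469 and 472 CPM (log2 1.59 ± 0.04, adjusted p = 7.83e-22). Altogether 9 of 24 tested genes of complement and lipid handling were higher and 8 lower.

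Genes of nitric oxide, prostaglandin and oxidative defence were mostly lower in hMPDM. Of 25 tested, 17 were lower, 6 of them past the test against a fold change of 2, and 1 was higher, with a median of -0.67. Slc7a2, the arginine carrier that feeds nitric oxide synthase (ENSMUSG00000031596.11, chromosome 8, 40862396 to 40922308, mm10), stood at 13.5 CPM in hMPDM and at 107 and 100.4 CPM in BMDM. The difference was -2.93 ± 0.14 on the log2 scale (adjusted p = 1.93e-16) and -5.26 after the subtraction. Nos2, the inducible synthase, stood at 156 CPM against 263 and 237 CPM (log2 -0.67 ± 0.07, adjusted p = 1.13e-08).

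Among its antioxidant genes the called ones were lower. Slc7a11, which imports cystine for glutathione, was at 157 CPM against 521 and 491 CPM (log2 -1.69 ± 0.07, adjusted p = 4.84e-18). Srxn1, which repairs peroxiredoxins, was at 228 CPM against 581 and 609 CPM (log2 -1.39 ± 0.06), and Gclm, a subunit of the glutathione synthesis enzyme, at 111 CPM against 278 and 291 CPM (log2 -1.36 ± 0.07). Cat, Hmox1, Txnrd1 and Nqo1 were lower as well, by 0.85 to 1.27 on the log2 scale. Outside the list, Prdx1 was at 1212 CPM against 2812 and 2731 CPM (log2 -1.19 ± 0.05). Of the oxidase of the phagosome, Cybb was close to equal (1762 against 1802 and 1799 CPM). The prostaglandin synthases went opposite ways: Ptgs2, the inducible form, was at 46.0 CPM against 79.9 and 75.0 CPM (log2 -0.74 ± 0.11), and Ptgs1, the constitutive form, at 71.1 CPM against 25.1 CPM in each BMDM library.

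Genes of macrophage identity differed in both directions by moderate amounts. Of 20 tested, 9 were higher, 4 lower and 0 past the test against a fold change of 2, with a median of 0.08 and 10 within 1.5-fold. Csf1r, the receptor for the growth factor that maintains macrophages, was at 1677 CPM against 1478 and 1572 CPM (log2 0.14, adjusted p = 0.0286). This call is lost without BMDM LPS replicate 1, with DESeq2, at a variation of 10% and with the replicate number in the fit. Adgre1, the surface antigen F4/80, was at 1495 CPM against 1226 and 1261 CPM (log2 0.26). The transcription factor gene Maf (220.2 against 114 and 106 CPM, log2 1.01 ± 0.07) and the lectin Siglec1 (70.9 against 34.4 and 36.0 CPM, log2 1.00 ± 0.12) were the highest above BMDM, and Cebpa the lowest below it (8.94 against 19.6 and 17.5 CPM). Most lysosome and cathepsin genes stood close, with 25 of 30 within 1.5-fold, although 7 were called higher and 5 lower. They held some of the most abundant transcripts, such as Ctsb at 22862 CPM against 21887 and 22932 CPM. Ranked per length of transcript, 8 of the top 10 genes were shared by all 3 libraries, led by Fth1, Lyz2 and Ctsd.

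Receptors for particles and ligands showed larger contrasts. Marco, a scavenger receptor for bacteria, was at 36.4 CPM in hMPDM and at 174 and 197 CPM in BMDM (log2 -2.37 ± 0.13, adjusted p = 4.30e-15, and -3.36 after the subtraction). The C-type lectin genes Clec4n (197 against 460.3 and 461 CPM) and Clec7a (10.5 against 22.5 and 22.4 CPM) were also lower, and Mrc1, the mannose receptor, was higher (3419 against 1993 and 1901 CPM, log2 0.81 ± 0.04). In total 8 of 27 were higher and 10 lower. Genes of alternative activation leaned lower, with a median of -0.65. Of 16 tested, 7 were lower, among them Chil3 (8.94 against 31.6 and 31.9 CPM, log2 -1.83 ± 0.19). The 4 higher ones included Pparg (16.1 against 5.74 and 6.08 CPM, log2 1.43 ± 0.22). At rest 9 of the list were lower and 3 higher. Of cytokine and chemokine receptors, 10 of 31 were higher, led by Csf3r (74.4 against 34.0 and 36.8 CPM), and 8 lower.

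S100 and neutrophil genes were mostly lower in hMPDM, and some genes of stem cells higher. Of 13 tested S100 and neutrophil genes 7 were lower and 1 higher, with a median of -1.58. S100a9 was at 11.1 CPM against 41.2 and 37.9 CPM (log2 -1.81 ± 0.17), S100a8 at 9.16 CPM against 29.0 and 27.1 CPM, and Ngp at 3.93 CPM against 15.6 and 15.3 CPM. The summed neutrophil markers given above moved with them, and the part of other cells in this difference was not tested. The homeobox gene Hoxb4, a regulator of haematopoietic stem cells (ENSMUSG00000038692.8, chromosome 11, 96318267 to 96321638, mm10), was at 19.2 CPM in hMPDM and at 6.19 and 4.66 CPM in BMDM (log2 1.88 ± 0.22, adjusted p = 6.71e-08). With Mecom, Ly6a, Lmo2 and Cd34, it made 5 of 18 progenitor and HOX genes that were higher, against 2 lower. Over all genes 12.5% were called in each direction, and the call of Cd34 was lost with DESeq2, at a variation of 10% and without BMDM LPS replicate 2 (adjusted p = 0.0872).

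Stress and metabolic lists differed too. The amino acid and endoplasmic reticulum stress genes Trib3 (38.4 against 7.10 and 7.43 CPM), Ddit3 (55.8 against 12.2 and 15.7 CPM, log2 1.94 ± 0.14), Sesn2 (28.8 against 8.31 and 9.17 CPM, log2 1.70 ± 0.17) and Chac1 (7.20 against 1.06 and 0.395 CPM) were each higher past the test against a fold change of 2. Their upstream factor Atf4 was at 380.3 CPM against 212 and 222 CPM (log2 0.81 ± 0.06), and the chaperone gene Hspa5 at 2695 CPM against 1615 and 1614 CPM. In that list 8 of 16 were higher and 1 lower. Glycolysis genes were lower in 10 of 19 cases and higher in 1, with a median of -0.29. The lower ones remain 10 with DESeq2 but fall to 5 and 1 if single libraries vary by 10% and 20%. The lactate carrier Slc16a3 (84.0 against 195 and 201 CPM, log2 -1.24 ± 0.08) and the kinase gene Pfkfb3 (74.4 against 165 and 157 CPM, log2 -1.11 ± 0.08) led them. Cell cycle genes were lower in 16 of 46 cases, by small amounts, such as Mki67 (403 against 572 and 545 CPM, log2 -0.47 ± 0.06), and higher in 1, and the 16 fall to 5 with DESeq2 and to 2 if single libraries vary by 10%. Ribosomal protein genes were higher in 4 of 32 cases, the same 12.5% as among all genes, and lower in 0, with a median of 0.12.

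The levels after LPS were then set beside those at rest, which came from other libraries. At rest 2371 genes were higher (19.0%) and 2395 lower (19.2%) in hMPDM, 38.2% in all. The libraries at rest were deeper, with 15318338 counts in hMPDM against 5510319 after LPS. In BMDM there were 15671839 and 19307312 counts at rest against 7977638 and 15261114 after LPS. More calls at rest therefore do not show that the cell types came closer after LPS. Of the 90 genes higher past the test against a fold change of 2 after LPS, 82 were called higher at rest as well, 1 (Slc13a3) was called lower, and 7 were not called. Of the 125 lower, 113 were called lower at rest, 0 higher, and 12 not called. Also called lower at rest were 10 of 19 glycolysis genes (0 higher), 26 of 46 cell cycle genes (2 higher) and 8 of 13 S100 and neutrophil genes (4 higher). Across all genes the differences in the 2 states correlated at r = 0.545 and rho = 0.569, a description across genes, which are not independent replicates. A direct test of the change in the difference called 7.86% of genes, 494 genes above (3.96%) and 485 below (3.89%) their difference at rest. Thus the sterol genes, the desaturases, Apoe, Srxn1, Cat and Hoxb4 differed in the same direction before LPS was given, and all 19 cholesterol genes were also called higher at rest, with a median of 0.93, while the direct test called 7 of the 19 above their difference at rest and 0 below.

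Fewer cytokine genes were called at rest. There 3 of the 20 were higher and 3 lower, the direct test called 1 above and 3 below their difference at rest, and Il12b (0.360 against 0.657 and 0.194 CPM, adjusted p = 0.901), Il6, Il1b and Cxcl1 were near the limit of detection in every unstimulated library. By the direct test the differences of the chemokine genes Ccl5 (change of -1.44 from rest to LPS, adjusted p = 0.00219), Cxcl10 (-0.65, adjusted p = 0.00966) and of the cytokine gene Tnfsf9 (-0.85, adjusted p = 1.10e-04) moved down, from values at rest that were not called. The change of Il12b (-2.65, adjusted p = 0.0751) was not called.

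For the interferon-stimulated genes the difference shrank with LPS. At rest 57 of 64 were higher in hMPDM and 0 lower, with a median of 1.40, and the direct test called 50 of 64 below their difference at rest and 0 above. Ifit1 stood at 42.6 CPM in unstimulated hMPDM against 4.48 and 6.05 CPM in BMDM, a difference of 2.99, and after LPS at the near-equal levels given above. Isg15, a ubiquitin-like protein, went from 29.8 against 4.78 and 5.04 CPM to 625 against 580.4 and 579 CPM. Oasl1 turned round, from 11.4 against 2.15 and 2.52 CPM at rest to the lower level given above. Csf1 showed the same narrowing, from 290.4 against 56.5 and 62.8 CPM, a change of -1.44 (adjusted p = 4.18e-15).

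**Figure D5:**
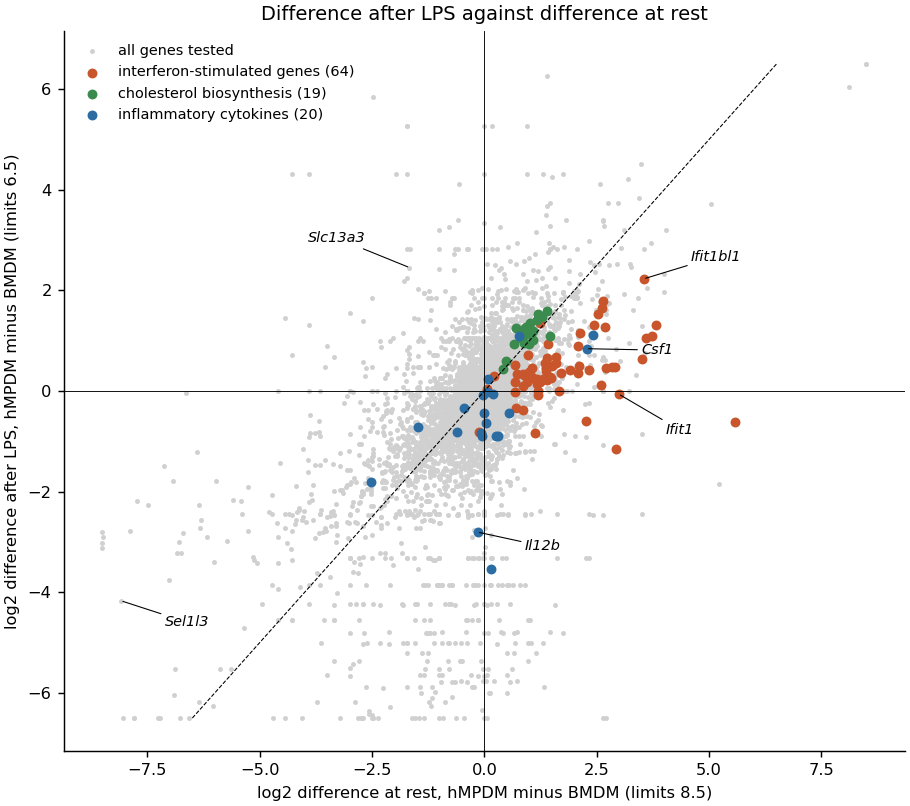
Difference of each gene after LPS (vertical) against its difference at rest (horizontal), both log2, hMPDM minus BMDM, with values past 6.5 and 8.5 drawn at those limits. The dashed line marks equal differences. Interferon-stimulated genes (orange) lie below it, cholesterol genes (green) above 0 in both states, 7 of 19 of them called above their difference at rest, and Il12b far below the line, a change that was not called.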

How the data were processed

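The authors deposited raw read counts per gene, without normalization, in 1 table with the layout of featureCounts, of 43346 genes and 10 value columns. 8 columns matched a single sample's labels. The other 2 bear the name hMPDM (1 at rest and 1 after LPS), match no sample used here and were not analysed here, so each hMPDM group holds 1 library. Per the submitters' processing notes, cutadapt, STAR, SAMtools, bedtools and featureCounts were used with the mm10 build, and no versions are given. Per the labels' protocols, cells were harvested in TRIzol and a KAPA stranded kit was used for polyA+ libraries. No mitochondrial gene had a count.

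Counts were fitted with edgeR 4.0.16 (R 4.3.3): filterByExpr, TMM, 1 coefficient per group over all 8 libraries, quasi-likelihood tests, Benjamini-Hochberg adjustment over 12461 genes, calls at 0.05, and glmTreat for a fold change of 2. The 2 residual degrees of freedom come from the BMDM pairs, and the hMPDM library is assumed to vary like them. The test adds 26.2 prior degrees of freedom, borrowed across genes, to a median total of 28.2, so small p-values rest mostly on this borrowing. An SE is the log2 difference divided by the square root of F. The script was tested on simulated data. DESeq2 1.42.0 was an alternative. Gene lists (29) and members were chosen with earlier results of these data known. Named genes are the 15 highest and lowest differences past the 2-fold test at 10 CPM or more, up to 4 called members and 2 close to equal per list, 5 genes at 0 in one group, and 18 anchors; other genes are examples chosen after their values were seen. Gene spans are those of the deposited table (mm10, counted from 1).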

Additional observations from a re-analysis of the deposited data

Results flagged for a closer look

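For 6 of the 182 named genes the difference between hMPDM and BMDM was not the same in the 2 states. The test was of the change in the difference against a fold change of 2. Of all 12461 genes tested, 31 were past it. Many named genes were chosen for their differences after LPS in these data, so the 6 are not read as an excess. Slc13a3, a dicarboxylate carrier, went from lower at rest (log2 -1.67) to higher after LPS (log2 2.45), a change of 4.12 (adjusted p = 8.49e-05). Sel1l3 had its deficit narrowed from -8.08 to -4.17, a change of 3.91 (adjusted p = 0.0406). It is among the 15 genes whose share of the BMDM level rose from 1.38% to 10.8% in the hMPDM LPS library, and the part of that rise in its change was not tested.

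The other 4 are interferon genes whose excess at rest narrowed after LPS. The change was -2.26 for Irf7 (adjusted p = 2.94e-10), -2.84 for Usp18 (adjusted p = 5.84e-13), -1.73 for Rsad2 (adjusted p = 5.24e-07) and -3.06 for Ifit1 (adjusted p = 5.84e-13). Each change sets single hMPDM libraries against BMDM pairs.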

How the results depend on the processing

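None of the 3121 calls after LPS was called in the opposite direction under the alternatives tried. The counts changed most with the assumed spread. DESeq2 called 645 genes higher and 601 lower, and 32 and 24 past its test against a fold change of 2, where the higher genes were the more numerous. With a coefficient of variation of 10% the counts were 522 and 713, and with 20% they were 136 and 220, with 26 and 37 past the test. Of the 3121 calls, 1246, 1232 and 356 were called in the same direction under these 3 alternatives, and between 2593 and 3115 under the others. Subtracting the share of the BMDM level raised the genes lower past the test to 244. Leaving out 1 BMDM library gave 1406 to 1608 genes higher, 1436 to 1637 lower, and 71 to 95 and 125 to 136 past the test. At rest it gave 1880 to 2059 higher and 1983 to 2132 lower, and for the change of the difference 430 to 486 above and 460 to 480 below. The calls at rest and of the change were not checked with DESeq2 or at a spread of 10% or 20%, which cut the calls after LPS most. The fit with the replicate block gave 1503 higher and 1545 lower. The numbers gave no sign of pairing, since the deviations of the BMDM libraries correlated at -0.115 over 7914 genes between the states. Crossed numbers, added after seeing the data, gave 1656 and 1652. Other scalings moved the median of all genes by 0.0151 at most. Of 160 called genes among the 182 named, 24 lost their call with DESeq2, and 38 and 86 at a spread of 10% and 20%. Besides the 24, DESeq2 gave no adjusted p for Kalrn, A530040E14Rik and Ccdc80, so it did not call them. A further 5 calls were lost without BMDM LPS replicate 2 (Ppbp, H2-Q6, Cd34 and Acp5 among them). Without replicate 1, 1 was lost (Csf1r), and with the block 3 (Csf1r, Clec4e and Rps9). Depth limits the hMPDM library most, at 5510319 counts.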
